A study of Homo sapiens with 3 samples.

Results

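Editing was described at 9 genes of DNA replication and proliferation: MCM2, MCM3, MCM4, MCM5, MCM6 and MCM7, the subunits of the replicative helicase, PCNA, TOP2A and MKI67. The genes were chosen by name from 3 lists of A-to-G positions in which they already had edited reads, and MCM4 and MKI67 were singled out by their levels in these libraries. The number of listed positions and the highest levels are therefore a description. All 9 genes were found, with 104 listed positions of 16820 in all, in 9 of 4245 listed genes. Of these 104 positions, 43 were in the list of DDX41-ADARcd against ADARcd alone, 29 in that of DDX41-ADARcd against empty vector, and 61 in that of ADARcd alone against the empty vector.

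The MCM2 to MCM7 proteins form a ring that is loaded on DNA before replication and unwinds the parental strands at the fork. PCNA is the sliding clamp that holds DNA polymerases on the template, and TOP2A is a topoisomerase that untangles DNA by cutting and rejoining both strands, mainly around mitosis. MKI67 encodes Ki-67, a large protein of the surface of mitotic chromosomes and a histological marker of dividing cells. Leukemia lines such as THP-1 divide continuously and transcribe all of these genes.

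The cells were THP-1, a human monocytic leukemia line, transduced with a pGK-GFP retrovirus made in 293T cells and harvested for total RNA after 7 days. One library carried DDX41-ADARcd, in which DDX41, a DEAD-box RNA helicase mutated in myeloid neoplasms, is joined to the ADAR catalytic domain. The second carried ADARcd alone, and the third the empty vector with no transgene. In this method, HyperTRIBE, ADARcd deaminates adenosine to inosine in RNA near the fused protein, and the inosine is read as G. There was 1 library per group, so reads of single libraries are compared, with no replicate error. Of 18 monocytic marker genes, 14 had a listed position, while the T cell, B cell, erythroid and epithelial marker lists had 0 genes listed. The lists hold only positions with an edited read, so a gene that is not listed is not shown to lack reads.

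The members' edited adenosines outside MCM4 that carried the most reads are shown first, because the results below turn on them. Each line is the transcript strand of GENCODE 29 on GRCh38, 5′ to 3′, with the edited A and the base on either side of it in capitals. The MKI67 position with 21 edited reads lies in exon 13 at chr10:128105276-128105296 (minus strand), the MCM5 position with 6 edited reads in exon 2 at chr22:35400550-35400570 (plus strand), and the TOP2A position with 3 edited reads in exon 23 at chr17:40400379-40400399 (minus strand). The last TOP2A line, exon 24 at chr17:40400026-40400046 (minus strand), is the TOP2A adenosine with edited reads in both ADARcd libraries.
MKI67 exon 13: agaactcctAAGggaaaagcc
MCM5 exon 2: ttcctgcggCAGtaccgagtg
TOP2A exon 23: aacaagttcTAGaacccatgt
TOP2A exon 24: tgtttaaagAAAtatgacacg
In the first 3 of these lines the edited A is followed by G. The MKI67 codon AAG is read as AGG after editing, which changes lysine to arginine, and the MCM5 codon CAG is read as CGG, which changes glutamine to arginine. The TOP2A change in exon 23 leaves leucine in place.

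Most member positions rested on a single edited read, the least that a listed position can have. This was so for 38 of 43 positions (88.4%) in DDX41-ADARcd against ADARcd alone, 21 of 29 (72.4%) in the list of DDX41-ADARcd against empty vector, and 38 of 61 (62.3%) in ADARcd alone against the empty vector. Over all listed positions the shares were 83.9%, 81.5% and 74.8% in the same 3 lists. For DDX41-ADARcd the share over all positions lay inside the members' interval in both lists (74.9 to 96.1 and 52.8 to 87.3). In ADARcd alone, 7 of 61 member positions (11.5%, 95% interval 4.74 to 22.2) had 5 or more edited reads, and 4.05% of all positions did. Of these 7 positions, 5 were in the MCM4 3′ UTR, 1 in MKI67 and 1 in MCM5. They include the MCM4 and MKI67 positions singled out by their levels, and positions of 1 gene share reads. The share is therefore a description, and nothing is read from its interval. Intervals here and below are exact Clopper-Pearson 95% intervals, which cover counting error only, since PCR reads without molecular identifiers are not independent molecules.

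The depth at the members' positions was moderate in both ADARcd libraries and low in the empty vector. Over the 43 positions of the first list the median depth was 68 in DDX41-ADARcd (31 to 176) and 102 in ADARcd alone (49 to 223). In the lists against the empty vector it was 75 for DDX41-ADARcd with 14 for its control, and 126 for ADARcd alone with 15 for its control. With 0 edited reads of 15, taking a floor of 3 reads, the empty vector allows a level of up to 20%. Set against the floor at its own position, 0 of 29 member levels of DDX41-ADARcd and 2 of 61 of ADARcd alone lay above it, so for the others an excess over the empty vector was not detectable at this depth. The 2 were the MCM4 position 47977554 and the MKI67 position 128105286, which were singled out by their levels. Their exact 95% intervals in ADARcd alone began at 18.7% and 13.8%, and those of the empty vector reached 20.6% at both. The intervals thus overlapped, and the Fisher's exact test given below called neither position against the empty vector. The median editing level was 1.56% in DDX41-ADARcd against ADARcd alone (order-statistic 95% interval 1.43 to 1.89), where all sites had 3.70%, and 1.54% for DDX41-ADARcd set against the empty vector, where all sites had 0.515%. In ADARcd alone the member median was 0.952% and that of all sites 0.434%. These medians follow depth, since 1 read is a larger share of fewer reads: over all sites the first library had a median of 30, 220 and 286 reads in these 3 lists.

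**Figure D1:**
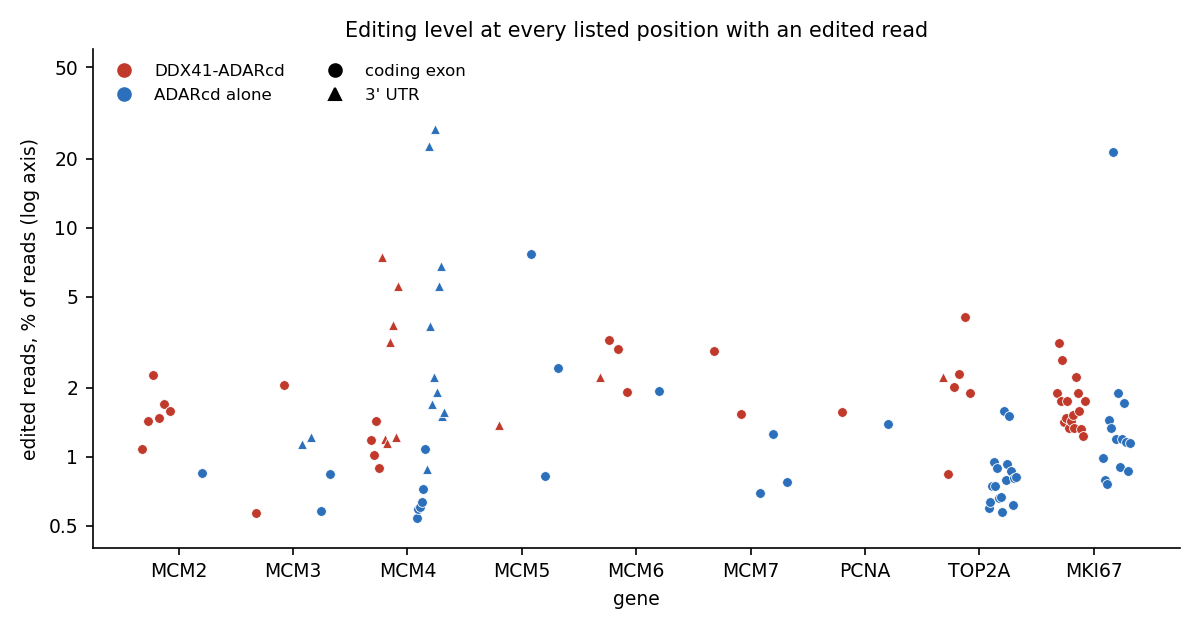
Editing level (percent of reads with the edited base, log axis) at each listed position with an edited read, by gene, with DDX41-ADARcd in red left of ADARcd alone in blue; circles are coding exons and triangles 3′ UTRs. Most points lie below 3%, and the 3 points above 20% are 2 MCM4 3′ UTR positions and 1 MKI67 position, all in ADARcd alone.

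MCM4, a subunit that sits between MCM6 and MCM7 in the helicase ring, had the densest and strongest editing of the 9 genes, and the strong sites all lay in its 3′ UTR. The gene had 23 listed positions on chromosome 8 (GRCh38, plus strand), 13 in the 3′ UTR and 10 in coding exons. That is 20.6 positions per 1000 A of its transcript, against 8.89 over the 9 genes together. Per length, the 3′ UTR held 9.41 positions per 1000 bases and the coding sequence 3.86. Of the 11 3′ UTR positions edited in ADARcd alone, 10 had 2 or more edited reads; of the 6 coding positions, 0 did.

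The highest level was at position 47977554, 776 bases after the stop codon. It had 2 edited reads of 63 in DDX41-ADARcd (3.17%, 0.387 to 11), 28 of 104 in ADARcd alone (26.9%, 18.7 to 36.5) and 0 of 16 in the empty vector, which allows up to 18.8%. The next was position 47977073, 295 bases after the stop, with 6 of 81 in DDX41-ADARcd (7.41%, 2.77 to 15.4), 26 of 114 in ADARcd alone (22.8%, 15.5 to 31.6) and 0 of 10 in the empty vector, which allows up to 30%. At both, the interval of DDX41-ADARcd ended below that of ADARcd alone, at position 47977073 narrowly (15.4 against 15.5). The two-sided Fisher's exact test given below did not call position 47977073 (adjusted p 0.56). Both positions were singled out by their level in ADARcd alone, so this is a description.

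Position 47977687 had 3 of 80 reads edited in DDX41-ADARcd (3.75%), 8 of 144 in ADARcd alone (5.56%) and 0 of 11 in the empty vector. Position 47977728 had 1 of 82 in DDX41-ADARcd (1.22%), 9 of 132 in ADARcd alone (6.82%) and 0 of 14 in the empty vector. Position 47977733, 5 bases further on, had the opposite order, with 5 of 90 in DDX41-ADARcd (5.56%, 1.83 to 12.5), 2 of 133 in ADARcd alone (1.5%, 0.183 to 5.33) and 0 of 14 in the empty vector. The intervals of the libraries overlapped at these 3 positions. Position 47977099 was edited in 5 of 134 reads of ADARcd alone (3.73%) and in 0 of 10 of the empty vector, and was not listed for DDX41-ADARcd.

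The 13 positions lay 287 to 957 bases after the stop codon, in a 3′ UTR of 1382 bases. Because ADAR enzymes act on paired RNA, the 3′ UTR was searched for stretches complementary to each other, a search chosen after the positions had been seen. The best pair ran from base 188 to 374 and from base 814 to 999, with 69.1% identity over 191 aligned bases and an alignment score of 61. It passed a limit of 60 narrowly, and 197 of 3501 listed genes with a 3′ UTR of at least 200 bases passed it (5.63%). Among the members searched, MCM6 had the next best score, 15, and the MCM7 3′ UTR of 151 bases was too short. The first stretch aligned to 7SL RNA, the ancestor of Alu repeats, with 74.7% identity over 79 bases on the same strand, and the second with 71.6% over 74 bases on the opposite strand. Of the 13 positions, 5 lay in the first stretch, 4 in the second and 4 outside, among them the one with the highest level. The 2 stretches held 22.9% of the A of this 3′ UTR.

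**Figure D2:**
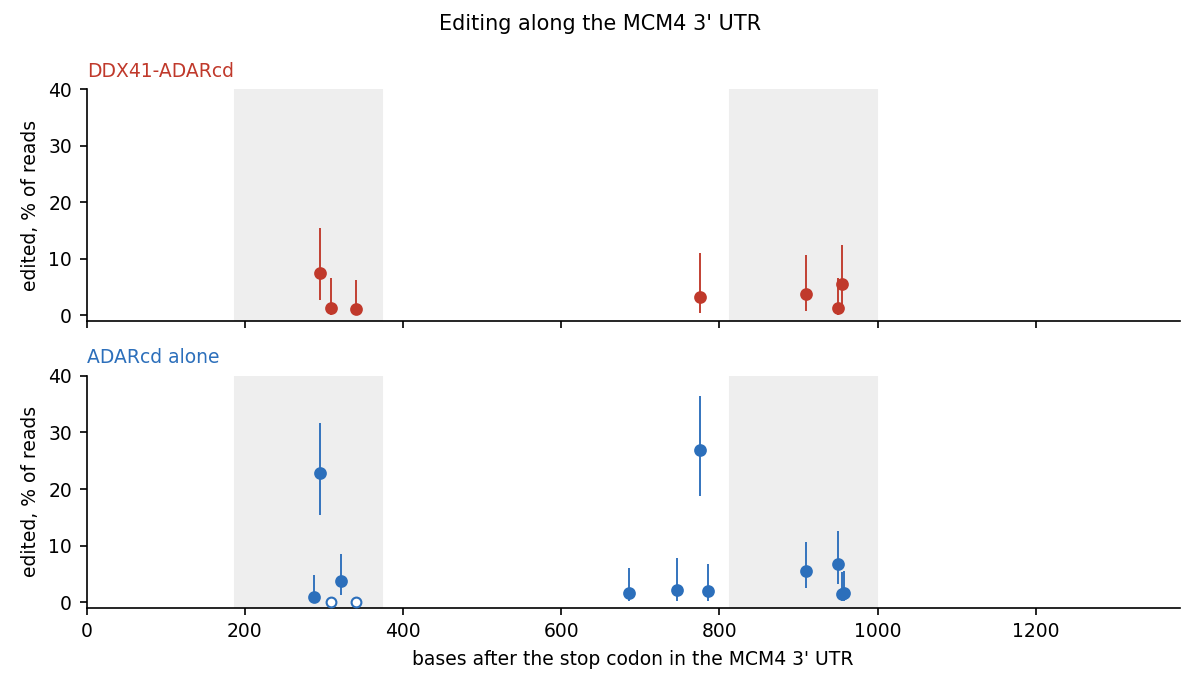
Editing along the MCM4 3′ UTR (x axis, bases after the stop codon; y axis, percent of reads edited) in DDX41-ADARcd above and ADARcd alone below, with exact 95% intervals as lines; open circles are listed positions with 0 edited reads, and grey bands are the 2 complementary stretches. The 2 highest points, 26.9% and 22.8%, are at bases 776 and 295 in ADARcd alone.

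The other helicase subunits had few positions and low levels, except 1 coding position of MCM5. MCM5, which forms with MCM2 the gate through which DNA enters the ring, had 4 positions. Its exon 2 position 35400560, shown above, had 6 of 78 reads edited in ADARcd alone (7.69%, 2.88 to 16.0) and 0 of 16 in the empty vector. It was not listed for DDX41-ADARcd, whose depth there is not in the lists. A second MCM5 codon, in exon 12, had 2 of 82 reads edited in ADARcd alone (2.44%).

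MCM2 had 7 positions, each with 1 edited read and each in a coding exon. For MCM2, 6 of the 7 were edited in DDX41-ADARcd, at 1.08% to 2.27%, with 0 edited reads of 88 to 136 in ADARcd alone. The remaining one had 1 of 118 reads edited in ADARcd alone (0.847%).

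MCM3, the neighbour of MCM5 in the ring, had 6 positions and a top level of 2.06%, from 2 of 97 reads in DDX41-ADARcd against 0 of 148 in ADARcd alone and 0 of 15 in the empty vector. Both of its 3′ UTR positions were edited in ADARcd alone, in 2 of 164 reads (1.22%) at 33 bases after the stop and 2 of 175 (1.14%) at 231 bases.

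MCM6 and MCM7 form with MCM4 a core that can unwind DNA on its own in vitro. MCM6 had 5 positions. Its top level was 3.23%, which is 1 of 31 reads in DDX41-ADARcd, against 0 of 49 in ADARcd alone. In ADARcd alone its only position had 2 of 103 reads edited (1.94%). MCM7 had 5 positions, with 2 of 69 reads edited in DDX41-ADARcd (2.90%) against 0 of 128 in ADARcd alone at one, and 2 of 160 edited in ADARcd alone (1.25%) against 0 of 43 in the empty vector at another. In MCM2, MCM3, MCM6 and MCM7 no position had more than 2 edited reads in any library.

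PCNA, the clamp, had 2 positions, both coding and both with 1 edited read. It had 1 of 64 reads edited in DDX41-ADARcd (1.56%) against 0 of 70 in ADARcd alone and 0 of 16 in the empty vector at the first. At the second it had 1 of 72 in ADARcd alone (1.39%) against 0 of 28 in the empty vector. PCNA thus gave no position with repeated edited reads.

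TOP2A had 22 positions spread over its 35 exons, 21 of them coding, or 11.3 per 1000 A of the transcript. Of these, 17 were edited in ADARcd alone, at 0.575% to 1.58%, 15 of them with 1 read. The most edited reads were 3 of 190 in ADARcd alone (1.58%, 0.327 to 4.54) in exon 23, against 0 of 32 in the empty vector. In DDX41-ADARcd the highest TOP2A level was 2 of 49 reads (4.08%, 0.498 to 14.0) in exon 20, against 0 of 120 in ADARcd alone. The exon 24 position had edited reads in both, 2 of 87 in DDX41-ADARcd (2.30%) and 1 of 150 in ADARcd alone (0.667%), against 0 of 19 in the empty vector. TOP2A was thus listed at many positions, mostly with 1 edited read, and at none above 5%. Whether these single reads were edits was not tested.

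MKI67 had the most positions of the 9 genes, 30, and all of them were coding. Per A of its long transcript it was near the other members, with 7.20 positions per 1000 A. Of the 30, 28 lay in exon 13 of 15, over a span of 6286 bases. A single position stood out. Position 128105286 on chromosome 10 (GRCh38, minus strand), the MKI67 line above, had 1 of 57 reads edited in DDX41-ADARcd (1.75%, 0.0444 to 9.39), 21 of 98 in ADARcd alone (21.4%, 13.8 to 30.9) and 0 of 16 in the empty vector, which allows up to 18.8%. The interval of DDX41-ADARcd ended below that of ADARcd alone, but the two-sided Fisher's exact test given below did not call the position (adjusted p 0.162). The position was singled out by its level in ADARcd alone, so this is a description.

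The other 13 MKI67 positions of ADARcd alone had 1 or 2 edited reads and levels of 0.763% to 1.89%. In DDX41-ADARcd, 17 MKI67 positions had an edited read, at 1.23% to 3.12%, and the highest was 2 of 64 reads (3.12%) against 0 of 126 in ADARcd alone and 0 of 12 in the empty vector. In ADARcd alone, 2 MKI67 adenosines that are 1824 bases apart in this exon stood in windows of 21 bases that shared 16 bases in a row. They are shown because they mark the internal repeats of this exon.
MKI67 at chr10:128106343-128106363: cccaggctcTAGaagaactga
MKI67 at chr10:128108167-128108187: cccaggctcTAGaagacctgg
Each had 1 edited read in ADARcd alone, of 83 (1.20%) and of 87 (1.15%). Reads from such near copies could be split or misplaced by an aligner, which was not tested.

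The direct comparison of DDX41-ADARcd with ADARcd alone rested on few positions. Of the members, 50 positions were edited in DDX41-ADARcd, 61 were edited in ADARcd alone, and 7 were edited in both, which is 24.1% of the 29 positions listed for DDX41-ADARcd against the empty vector and 11.5% of the 61. Over all genes 402 positions were shared, 11.4% of 3516 and 6.27% of 6413. Both lists share the empty vector as control. Of the 7 shared positions, 5 were in the MCM4 3′ UTR, 1 in MKI67 and 1 in TOP2A. The level was lower in DDX41-ADARcd at 5 and higher at 2, with a median of 3.17% in DDX41-ADARcd and 6.82% in ADARcd alone. Of the 402 shared positions, 159 were lower and 243 higher, with medians of 0.323% for DDX41-ADARcd and 0.331% for ADARcd alone. At 4 of the 7 the level was at least 2-fold lower, where 18.9% of the 402 were, and at 2 at least 2-fold higher, where 16.7% were. The 3 positions with the most edited reads had been singled out by their level in ADARcd alone, so nothing is read from these shares.

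**Figure D3:**
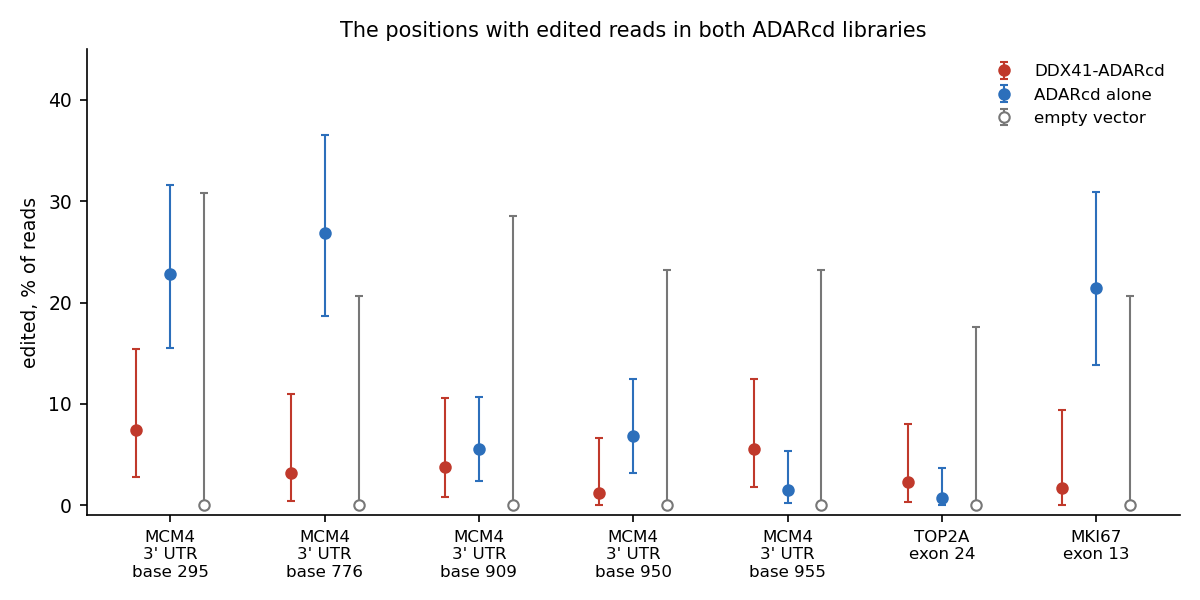
Percent of reads edited at the 7 member positions with edited reads in both ADARcd libraries, with exact 95% intervals, for DDX41-ADARcd (red), ADARcd alone (blue) and the empty vector (grey, open, 0 edited reads at each). The blue interval lies above the red one at MCM4 bases 295 and 776 and at MKI67 exon 13, and the empty vector's intervals reach 17.6% to 30.8%. Those MCM4 and MKI67 positions were singled out by their level in ADARcd alone.

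A two-sided Fisher's exact test of edited and other reads, adjusted by Benjamini-Hochberg over all positions of a comparison, compares the 2 libraries at each position. For DDX41-ADARcd against ADARcd alone, 1 of 50 member positions was called lower (MCM4, position 47977554), where 26 of 9227 positions were (0.282%), and 0 member positions were called higher, where 0 of 9227 were (0%). With an unadjusted p under 0.05, 3 member positions were lower and 0 higher. The MCM4 call was not made with Bonferroni adjustment or with all reads halved. A position can come out lower only where ADARcd alone had edited reads, which was so at 7 of the 50 member positions and at 400 of the 9227. The called position was singled out by its level in ADARcd alone, which enters this test, so the call is a description and nothing is read from its share. For DDX41-ADARcd against the empty vector 0 of 29 member positions were called higher, where 0 of 3512 were (0%). By the same test 0 of the 29 had an unadjusted p under 0.05. A lower call could not occur, because a position was listed only if its control showed 0 edits. A higher call was out of reach as well, with member levels of at most 7.41% and 10 to 42 control reads. These counts therefore decide nothing about DDX41-ADARcd. For ADARcd alone against the empty vector 0 of 61 were called higher, where 13 of 6412 were (0.203%), and 2 had an unadjusted p under 0.05.

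Reads of ADARB1 and DDX41 differed between the libraries beside these levels. ADARB1, the gene of ADAR2, was read at a median depth of 223 in DDX41-ADARcd, against 909 in ADARcd alone, over 5 listed positions, a read ratio of 0.217 (0.198 to 0.247). DDX41 was read at a depth of 236 in DDX41-ADARcd, against 32 in ADARcd alone, over 23 positions, a ratio of 6.93. Both ratios are to be set beside the median ratio of 0.657 over 1180 genes of the same list. The labels do not say from which ADAR gene the domain came. The part of ADARcd abundance in the MCM4 and MKI67 levels of the libraries was not tested.

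The members' own read depth followed that of the other genes, in so far as listed positions show it. Library totals are not in the lists, so a read ratio is read only against other genes of the same list. Over the 50 positions the median ratio of DDX41-ADARcd to ADARcd alone was 0.633 (0.408 to 0.914), and the median of 1180 genes with 3 or more positions was 0.657 (5th to 95th percentile 0.465 to 0.912). MCM4 had a ratio of 0.664 over 11 positions, MKI67 0.616 over 17, TOP2A 0.627 over 6, MCM2 0.598 over 6 and MCM6 0.582 over 4. These 5 genes ranked between the 23.2th and the 51.8th percentile of those genes. MCM3 (0.722), MCM5 (0.745), MCM7 (0.585) and PCNA (0.914) had 1 or 2 positions each and were not ranked.

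Ratios to the empty vector rested on its low depth, a median of 14 and 15 reads in the lists of DDX41-ADARcd and ADARcd alone. In DDX41-ADARcd the members' median ratio was 5.20 (3.21 to 9.15), against 5.96 over 389 genes. In ADARcd alone it was 9.14 (2.57 to 18.6), against 8.65 over 626 genes. MCM5 was low among those, with a ratio of 4.88 over 3 positions, at the 5.27th percentile. With bulk RNA, fewer cells that express a gene and less RNA per cell cannot be told apart.

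**Figure D4:**
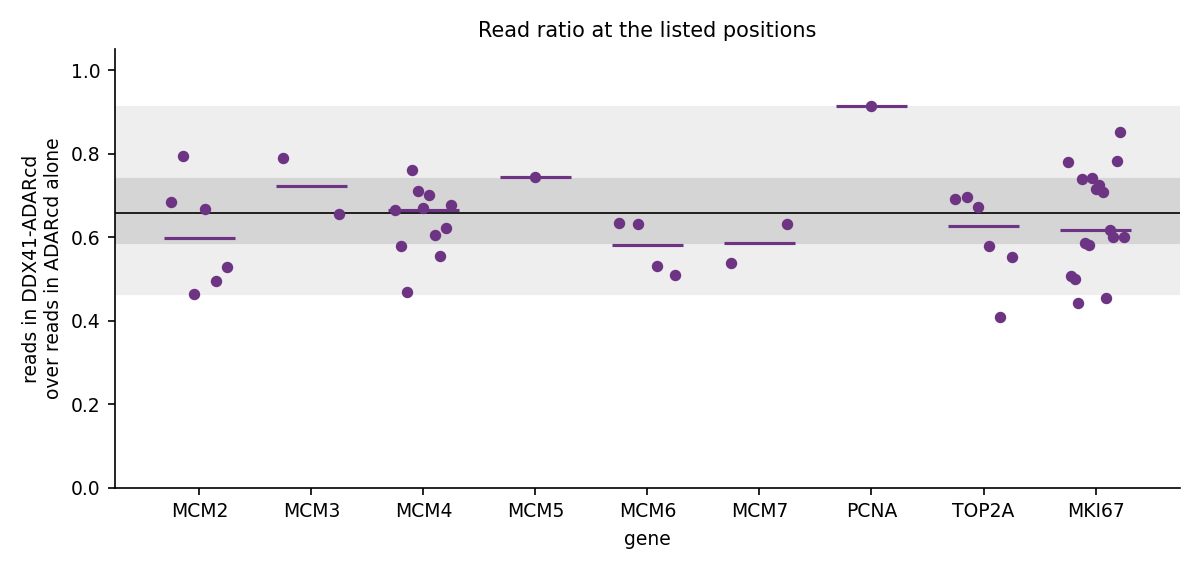
Reads in DDX41-ADARcd over reads in ADARcd alone at each member position (points) with the median per gene (bars); the line, dark band and light band are the median, the middle 50% and the 5th to 95th percentile of 1180 genes. The medians of MCM2, MCM4, TOP2A and MKI67 lie inside the dark band, from 0.598 to 0.664.

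The bases next to the edited A were not used to choose the members. ADAR enzymes prefer U before and G after the edited A. Among all 11696 A of the members' transcripts, 13.2% have U before and 30.0% have G after. In ADARcd alone, member positions with 2 or more edited reads had U before in 10 of 23 (43.5%, 23.2 to 65.5) and G after in 15 of 23 (65.2%, 42.7 to 83.6). Those with 1 edited read had U before in 6 of 38 (15.8%) and G after in 13 of 38 (34.2%). Over all positions of that list with 2 or more edited reads, 23.9% had U before and 45.1% G after. Both shares lay near the lower ends of the members' intervals. With 5 or more edited reads, 44.9% of all positions had U before and 55.1% G after. Member positions with 5 or more had U before in 4 of 7 (57.1%) and G after in 6 of 7 (85.7%). Positions of 1 gene share reads and sequence, so they are not independent. Without MCM4, U before was at 3 of 13 (23.1%, 5.04 to 53.8), an interval that includes the 13.2% of all A. G after was at 9 of 13 (69.2%, 38.6 to 90.9), above the 30.0% of all A. Among the A of the MCM4 transcript, 17.5% have U before and 28.3% have G after.

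For DDX41-ADARcd against ADARcd alone, U before was found at 8 of 43 member positions (18.6%, 8.39 to 33.4) and G after at 15 of 43 (34.9%, 21 to 50.9). Over all positions of that list the shares were 13.7% and 37.1%. Both member intervals include the share of all A of the members' transcripts. Against the empty vector, the 8 positions of DDX41-ADARcd with 2 or more edited reads had U before in 4 (50%) and G after in 3 (37.5%). All 4 with U before were in MCM4, and without that gene it was 0 of 4.

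**Figure D5:**
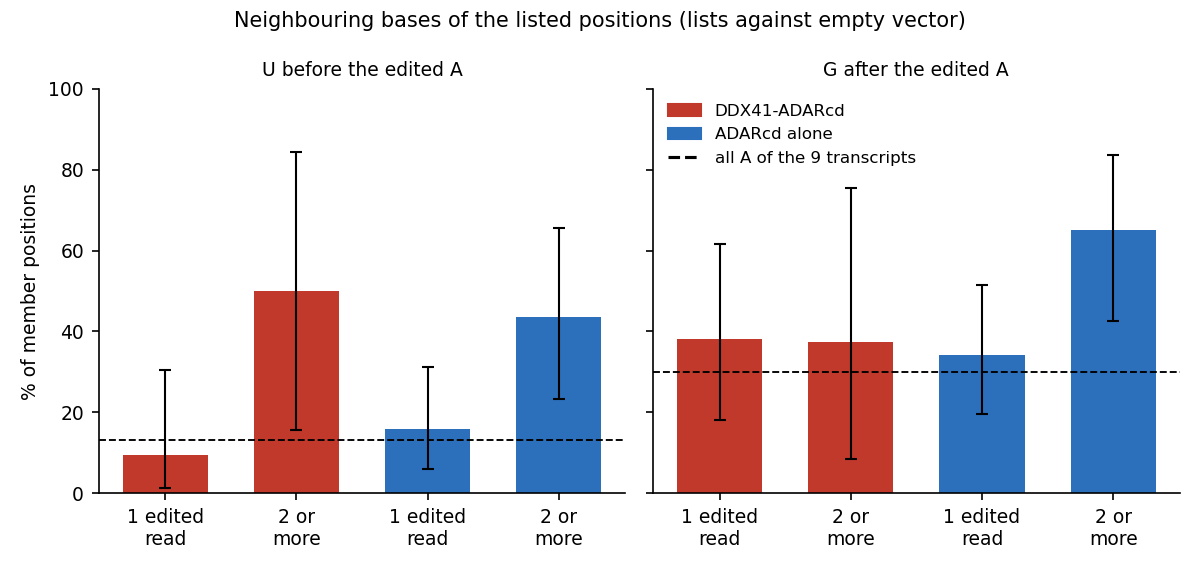
Percent of member positions with U before (left) and G after (right) the edited A, with exact 95% intervals, for 1 and for 2 or more edited reads, in the lists of DDX41-ADARcd (red) and ADARcd alone (blue) against the empty vector; the dashed line is the share of all A in the 9 transcripts. In ADARcd alone the bars for 2 or more edited reads, 43.5% and 65.2%, stand above the line with their intervals. Without MCM4 (not drawn) the first was 23.1%, with an interval of 5.04 to 53.8 that includes the line.

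By annotation 86 of the 104 positions were in coding exons, 18 in 3′ UTRs and 0 in introns. Where transcripts overlapped, a coding exon was counted first and an intron only where no exon was annotated. In DDX41-ADARcd against ADARcd alone, 88.4% of member positions were coding (74.9 to 96.1), where 58.1% of all positions were, and 11.6% were in 3′ UTRs, where 28.6% were. The members are all protein-coding genes, while all positions of that list include 2.79% in non-coding exons and 6.97% in introns. The difference in shares is therefore a description. Against the empty vector, coding positions made up 79.3% in DDX41-ADARcd and 78.7% in ADARcd alone, where all positions had 73.0% and 72.3%. Of the 86 coding positions, 26 were synonymous and 60 changed an amino acid. Lysine to arginine was the most frequent change, at 12 positions, followed by glutamic acid to glycine at 8 and lysine to glutamic acid at 7. The strongest MKI67 position was one of the lysine to arginine changes.

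Bases other than A and G were also counted at the members' positions. In ADARcd alone they made up 0.0580% of 7762 reads per base in its list against the empty vector, beside 2.24% edited reads. The empty vector had 0.196% per base at the same 61 positions, from 4 of 1020 reads, and 0 edited reads. In DDX41-ADARcd they made up 0.0332% of 3015 reads per base in its list against ADARcd alone, beside 1.59% edited reads, and in ADARcd alone 0.0211% at those 43 positions. In the list of DDX41-ADARcd against empty vector they were at 0 of 2324 reads in DDX41-ADARcd and 0 of 449 in the empty vector. Positions enter a list only with an edited read, which raises the edited share by construction.

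Positions in other proliferation genes were counted in the same way. Of 56 replication factors, 22 genes of nucleotide synthesis and 61 of mitosis and the cell cycle, 35, 14 and 35 had positions in DDX41-ADARcd against ADARcd alone. Against the empty vector, 5, 8 and 16 had positions in DDX41-ADARcd and 7, 7 and 18 in ADARcd alone. Genes without a position are not in the lists, so no share over all genes is given. None of these genes' positions was called in any of the 3 comparisons by the Fisher test. Over all positions 0.282% and 0.203% were called in the 2 comparisons with calls. At such shares, the 70, 56 and 109 positions tested in DDX41-ADARcd against ADARcd alone leave little room for a call, so nothing is read from this. Among the genes with most positions, PAICS, an enzyme of purine synthesis, reached 10 of 62 reads in ADARcd alone (16.1%) in its 3′ UTR. IMPDH2, which makes guanine nucleotides, reached 8 of 111 in ADARcd alone (7.21%). GINS1, a subunit of the GINS complex that joins the MCM ring in the active helicase, had 4 of 24 reads edited in DDX41-ADARcd (16.7%, 4.74 to 37.4) and was listed only against ADARcd alone. CDC20, an activator of the anaphase-promoting complex, had up to 4 of 263 in ADARcd alone (1.52%), and SMC4, a condensin subunit, 2 of 111 (1.80%). In the list of DDX41-ADARcd against ADARcd alone these genes had other top positions in DDX41-ADARcd. These had 2 of 24 reads edited in PAICS (8.33%), 2 of 70 in IMPDH2 (2.86%), 1 of 236 in CDC20 (0.424%) and 2 of 28 in SMC4 (7.14%).

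The shared positions of other genes most like those of the members were ranked by the distance between log2 odds of editing in the 2 ADARcd libraries, over 2 libraries only. The nearest to MKI67 position 128105286 was in APH1A, with 1 of 65 reads edited in DDX41-ADARcd (1.54%) and 21 of 111 in ADARcd alone (18.9%). For MCM4 position 47977073 it was in PAICS, with 1 of 25 in DDX41-ADARcd (4%) and 10 of 62 in ADARcd alone (16.1%). For the TOP2A exon 24 position it was in CFD, with 2 of 84 in DDX41-ADARcd (2.38%) and 1 of 146 in ADARcd alone (0.685%). SRP14 was among the 3 nearest to both MCM4 and MKI67, with 5 of 158 in DDX41-ADARcd (3.16%) and 45 of 203 in ADARcd alone (22.2%).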

How the data were processed

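The data were 3 lists of A-to-G positions from 3 HyperTRIBE libraries of THP-1 cells, 1 per group. The deposited values are counts: per the file headers, read counts of each base and in total at a genome position in 2 libraries, with no normalization. The submitters' processing notes name CASAVA 1.4, FastQC 0.11.7, STAR 2.5 and a mouse build, with no role. The site caller and its filters: not given in the sources used here. Positions fit human GRCh38: 99.9% of 15761 exonic positions have A on a GENCODE 29 transcript, as have all 104 member positions. Since the columns do not name libraries, each list's title was used: its first library is the edited one here. Listed positions had 1 or more edited reads in that library, and 0 edited of 10 or more reads in the control. No per-sample columns were left unused.

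Entries repeating a position were joined. Levels are percent edited of all reads. The two-sided Fisher's exact test (SciPy 1.17.1) took positions with at least 10 reads in both libraries, with Benjamini-Hochberg adjustment over all positions and a threshold of 0.05. For DDX41-ADARcd against ADARcd alone it added the positions listed for both against the empty vector. It was tested on simulated data. Complementary 3′ UTR stretches came from local alignment (Biopython 1.88, match 1, mismatch -1, gap -3 and -1; at most 5000 bases). Named genes were all members, the up to 4 genes with most positions of 3 other lists (5 of these 12 are given with values), and the nearest shared positions. Members and lists were chosen with earlier results of these data known. Alternatives were other read minimums, adjustments and subsets.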

Additional observations from a re-analysis of the deposited data

How the results depend on the processing

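Of 99 recomputed values, 61 stayed within 1.5 times a count or inside a value's interval, and 38 moved. A change of direction was not looked for, and the cause was not tested. For DDX41-ADARcd against ADARcd alone, the 1 called position became 0 with Bonferroni adjustment, 0 with reads halved, and 2 when adjusted over the 402 shared positions alone, which was added after seeing the data. Requiring 2 or more edited reads left 5, 8 and 23 positions (DDX41-ADARcd against ADARcd alone, DDX41-ADARcd against empty vector, ADARcd alone against empty vector), with median levels of 2.90%, 3.15% and 1.89%. Requiring 3 or more left 0, 3 and 8. Against the empty vector, a minimum of 20 reads in both libraries left 2 and 12 positions, with read ratios of 3.86 and 4.93. Summed reads gave 2.24% for ADARcd alone. Summing listed positions within 50 bases gave 10.7% for the top MCM4 position and 12.2% for that of MKI67.

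With 2 or more edited reads, in the same order of lists, coding shares were 100%, 50% and 47.8%, 3′ UTR shares 0%, 50% and 52.2%, and U before 0%, 50% and 43.5%; G after was 65.2% for ADARcd alone. In 3′ UTRs alone, U before was 40%, 66.7% and 61.5%, and G after 60% in DDX41-ADARcd against ADARcd alone. Counting all overlapping annotation gave intron shares of 18.6%, 24.1% and 19.7%, and a 3′ UTR share of 32.6% for DDX41-ADARcd against ADARcd alone. Leaving out MCM4, added after seeing the data, gave U before at 0% for DDX41-ADARcd against empty vector.

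No paired analysis was possible because each group had 1 library, and no replicate was left out for that reason. Depth in the empty vector limits every comparison with it, and lists that hold only edited positions give no depth where a library was not listed.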
